A study of Rattus norvegicus with 12 samples.

Results

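Hippocampal RNA of rats that received KA and then lived in an enriched environment was compared with that of rats that received PBS and then lived alone. Both the treatment and the housing differ between these groups, which are named here KA_enriched and PBS_isolated, so the comparison asks how far a seizure treatment followed by enrichment left the hippocampus from the isolated vehicle state. Each group holds 3 arrays of the 12 in the series, and all 6 arrays were taken from the sample labels, with no measured value used to choose them. The animals are rats (Rattus norvegicus) of a strain that the labels do not give. The labels write only KA, read here as kainic acid because the title speaks of seizures, and PBS (phosphate-buffered saline) was its vehicle. Treatment was at postnatal day 20 in every group. PBS_isolated rats were housed singly for 10 days until they were killed. KA_enriched rats shared a large cage, 8 to a cage, for a time that the labels do not give. Beside them stand KA_isolated (KA, then the same single housing) and PBS_enriched (PBS, then the large cage), 3 arrays each, which carry 1 of the differences at a time. Each array is 1 pool of hippocampi from 3 to 4 animals. The unit of replication is therefore taken as the pool, and p-values measure the spread between pools. Whether pools of enriched rats came from the same cage is not known, so they may not be independent for housing. Litter, cage and sex are not in the labels, no group had ordinary group housing, and enrichment cannot be told apart from the lack of isolation or from a shared cage.

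Kainic acid activates kainate and AMPA receptors for glutamate, the main excitatory transmitter, and drives the hippocampus into seizures. Seizures switch on immediate early genes such as Fos, Arc and the Egr transcription factors within minutes to hours, and injury then brings reactive astrocytes and activated microglia. The same immediate early genes also respond to ordinary experience, such as exploring a new place. In rats of about weaning age, as here, the hippocampus is still maturing and is more resistant to kainate-induced cell death than in adults.

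The values are probe set signals on a linear scale, 1 probe set being a group of short probes for 1 transcript. Differences are given as KA_enriched minus PBS_isolated on the scale log2(signal + 17), with the standard error (SE) of a limma model over all 12 arrays, so that fold changes of dim genes are understated. A probe set was called at an adjusted p under 0.05 over the 9520 probe sets tested, which stand for 6923 named genes. Signals of different probe sets are not compared with each other. Since the tissue is bulk, fewer cells of a type and less RNA per cell cannot be told apart.

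Of 16 listed markers of hippocampal pyramidal and granule neurons, 13 lay above the filter on low signal, with a summed signal of 12230 to 12750 on the PBS_isolated arrays and 12030 to 13060 on the KA_enriched arrays. The 8 tested markers of thalamus and striatum summed to 931 to 963 and to 994 to 1039. One of the 6 arrays stood apart. KA_enriched replicate 3 had the lowest mean correlation with the other arrays (0.9772) and the highest ratios of 3 prime to 5 prime signal for beta-actin, GAPDH and hexokinase (log2 0.86, 0.25 and 1.60). The beta-actin ratio, a measure of RNA integrity and labelling, was 0.47 ± 0.10 (SD, n = 3) in PBS_isolated and 0.65 ± 0.18 in KA_enriched. Its part in the differences below was not tested beyond the values given without that array or with the ratio as a covariate.

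One gene, Anp32a, was called between KA_enriched and PBS_isolated, and it was lower. It is 0.0105% of the 9520 probe sets tested (limma, Benjamini-Hochberg adjusted p under 0.05), and no probe set was called higher. The next smallest adjusted p was 0.677. Before adjustment, limma gave 500 probe sets with p under 0.05 (5.25%), 260 of them higher (2.73%) and 240 lower (2.52%) in KA_enriched. The differences were small throughout, with a median size of 0.075 and a median SE of 0.099 on the log2 scale. Past 1.5-fold there were 12 probe sets (0.126%) and past 2-fold only Anp32a, among the 9520. At the median SE, the 95% interval of a difference reached 0.21 to either side on the log2 scale, or 1.16-fold.

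**Figure D1:**
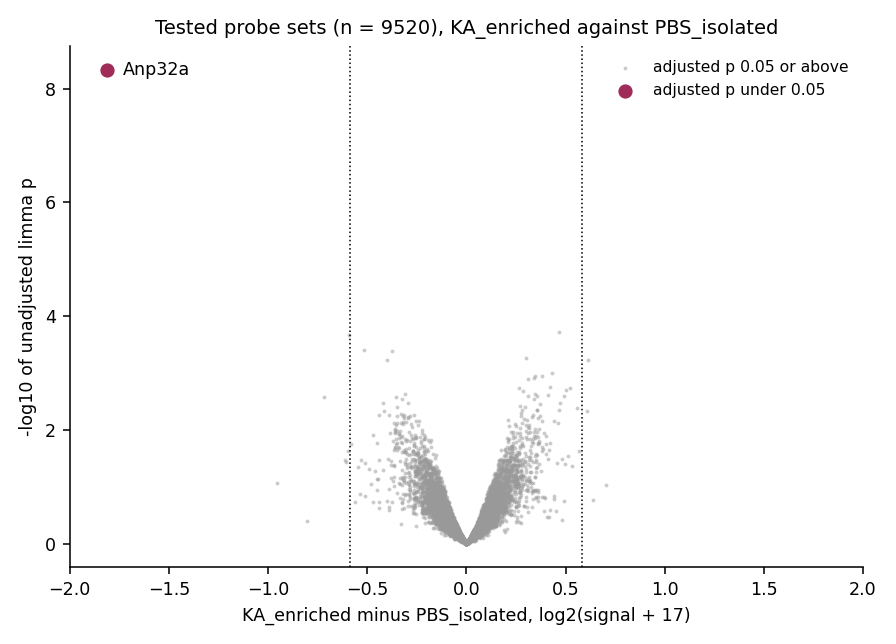
Each point is 1 of the 9520 tested probe sets; the horizontal axis is KA_enriched minus PBS_isolated on the log2(signal + 17) scale, the vertical axis is -log10 of the unadjusted limma p, and dotted lines mark 1.5-fold. Anp32a, at -1.81, lies far from the other points and is the 1 called probe set.

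Over all tested probe sets, the arrays of the 2 groups were about as far from each other as arrays of the same group. The root mean square difference between 2 arrays was 0.182 to 0.214 within PBS_isolated, 0.217 to 0.293 within KA_enriched and 0.182 to 0.274 between the groups. The closest pair between the groups, PBS_isolated replicate 2 and KA_enriched replicate 1, was as close as the closest pair within PBS_isolated. Both of the longest distances within KA_enriched involved replicate 3.

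**Figure D2:**
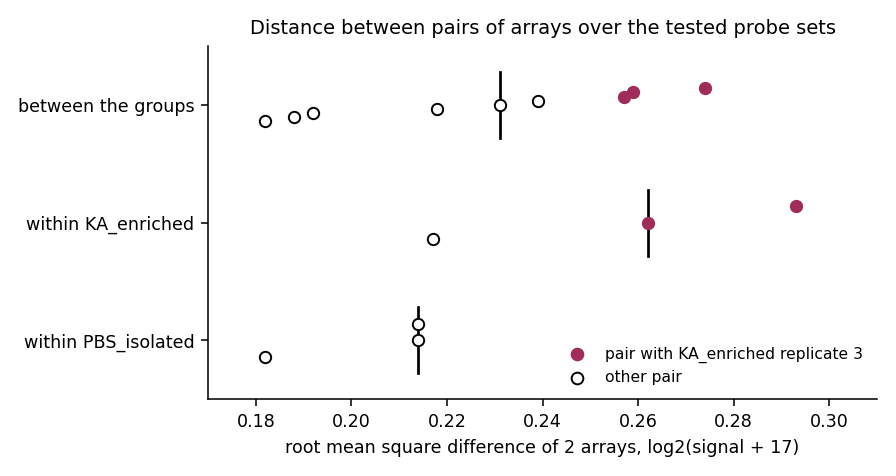
Each point is a pair of arrays placed at its root mean square difference over the tested probe sets on the log2(signal + 17) scale, with filled points for pairs that include KA_enriched replicate 3 and a bar at the median of each row. Pairs between the groups (0.182 to 0.274) span nearly the same range as pairs within them (0.182 to 0.293).

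Anp32a encodes an acidic leucine-rich nuclear phosphoprotein that inhibits protein phosphatase 2A and binds histones. Its signal was 386, 331 and 459 on the 3 PBS_isolated arrays and 116, 83.7 and 98.4 on the 3 KA_enriched arrays. Every KA_enriched array lay below every PBS_isolated array, with a wide gap between the groups. The means were 392 ± 63.9 (SD, n = 3) and 99.3 ± 16, a log2 difference of -1.81 (SE 0.134; limma, adjusted p = 4.43e-05), or 3.51-fold lower on the log2(signal + 17) scale. The groups with 1 factor lay between. KA_isolated arrays read 168, 162 and 132, and PBS_enriched arrays 127, 132 and 159. Both were called lower than PBS_isolated (1 probe set in each comparison, 0.0105%) in comparisons that share the PBS_isolated arrays with the one above, by a log2 of -1.25 (adjusted p = 0.00361) and -1.38 (adjusted p = 0.00115). KA_enriched differed from KA_isolated by -0.56 (95% interval -0.85 to -0.27; adjusted p = 0.538) and from PBS_enriched by -0.43 (95% interval -0.72 to -0.14; adjusted p = 0.932), so neither difference passed, and no probe set was called in either of these 2 comparisons. All 3 KA_enriched arrays lay below all arrays of the other 3 groups.

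Anp32a is represented on the array by 1 tested probe set, so no second probe set bears on it. Of the 13 tested genes of the ANP32 and protein phosphatase 2A list, it was the only 1 called (0.0144% of all tested genes were). Of the 13, 5 were higher and 8 lower, with a median of -0.01 beside 0.00 for all tested genes. Without KA_enriched replicate 3, 8 were higher and the median was 0.03. With Anp32a included, 3 were lower and 1 higher without overlap, beside 4.02% and 4.43% of all tested genes. At an unadjusted limma p under 0.05 there were 3, all lower and Anp32a again among them, beside 2.47% of all tested genes. Anp32e, a related histone chaperone, gave 311, 297 and 286 in PBS_isolated and 236, 276 and 252 in KA_enriched (log2 -0.22, SE 0.081, adjusted p = 0.914). Those arrays did not overlap, but a weaker Anp32e probe set differed by 0.08 and overlapped. Ppp2r1b, a scaffold subunit of the phosphatase, differed by -0.17 and Ppp2r2c, a brain regulatory subunit, by -0.31, and neither passed.

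The sequence just before the start of Anp32a is shown because it is the called gene, and that of Egr4 because it had the largest difference among the 15 higher genes described below. Both are from the RefSeq promoter table on build GRCr8, 250 bases up to the start of the gene and read 5′ to 3′ on the gene's strand (Anp32a chr8:71724328-71724577, plus strand; Egr4 chr4:119607818-119608067, minus strand). Capitals mark TGACG, the core of the cyclic AMP response element on either strand, the site of the activity-dependent factor CREB.
Anp32a: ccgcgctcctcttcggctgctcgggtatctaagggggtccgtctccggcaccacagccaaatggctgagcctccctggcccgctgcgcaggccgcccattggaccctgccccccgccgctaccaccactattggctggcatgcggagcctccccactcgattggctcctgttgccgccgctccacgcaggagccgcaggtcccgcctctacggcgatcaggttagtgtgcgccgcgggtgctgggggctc
Egr4: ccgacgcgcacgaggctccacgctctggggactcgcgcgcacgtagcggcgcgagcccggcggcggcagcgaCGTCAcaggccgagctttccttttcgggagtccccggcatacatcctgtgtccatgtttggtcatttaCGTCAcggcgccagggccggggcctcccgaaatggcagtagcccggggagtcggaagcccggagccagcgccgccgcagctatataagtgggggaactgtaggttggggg
The Anp32a window held 0 such cores and the Egr4 window 2. Of the other activity-regulated genes looked at, Egr1 held 2, Nr4a2 held 1 and Junb held 1; Arc was not in the table. The core is common, in 19% of the 27457 windows of that length. The full element TGACGTCA was in 0 of these 5 windows and in 1.7% of all. The CArG box, the site of serum response factor, occurred at 2 places in Egr1, in none of the other 4 windows and in 1.5% of all. These matches describe the letters of the windows and nothing more.

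Activity-regulated transcription factors were higher in mean in KA_enriched for 9 of the 11 tested, with a median log2 difference of 0.21 against 0.00 for all tested genes, of which 50.1% were higher. None of the 11 was called by limma; at an unadjusted p under 0.05 there were 4, Egr1, Egr4, Nr4a2 and Junb, all higher, beside 2.72% of all tested genes. The arrays did not overlap for 3 of the 11, Egr1, Egr4 and Jun, beside 4.43% of tested genes. For Jun, the AP-1 partner of Fos, the brightest probe set differed by 0.11 and the other two by -0.11 and -0.02 with overlap. The median was 0.11 without KA_enriched replicate 2 and 0.12 without PBS_isolated replicate 3, and the count of 9 was unchanged without each of the 6 arrays in turn.

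Egr1, a zinc finger factor switched on by synaptic activity, gave 475, 453 and 416 in PBS_isolated and 572, 561 and 630 in KA_enriched. The lowest KA_enriched array was above the highest PBS_isolated array. The difference was 0.38 (SE 0.092, or 1.30-fold) and did not pass (adjusted p = 0.914). The level in PBS_enriched was 540, 547 and 664 and that in KA_isolated 413, 378 and 403, so both enriched groups were high and both isolated groups low. Egr4, a relative of Egr1, gave 59.4, 63.2 and 46.2 in PBS_isolated and 87.4, 104 and 73.7 in KA_enriched, a difference of 0.52 (SE 0.134, or 1.44-fold; adjusted p = 0.914). PBS_enriched read 94.5, 86.3 and 115, and KA_isolated 68.6, 49.8 and 58.6, the same order by housing. KA_enriched minus PBS_enriched was 0.01 (95% interval -0.18 to 0.21) for Egr1 and -0.13 (-0.42 to 0.15) for Egr4.

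Nr4a2, an orphan nuclear receptor of the same early response, differed by 0.28 (SE 0.099) and Junb, another partner of Fos, by 0.23 (SE 0.106); the arrays of both genes overlapped. Fos itself lay below the filter and was not tested. Its brighter probe set read 41.2, 41.6 and 23.6 in PBS_isolated and 73.6, 67.2 and 70.2 in KA_enriched. Its dimmer one read 17.3, 16.4 and 12.3 against 32.7, 22.2 and 29.4. All KA_enriched arrays were thus above all PBS_isolated arrays on both Fos probe sets. Of the 9520 tested probe sets, 4.40% were higher without overlap, and the share among probe sets below the filter was not counted. The limit of the filter, set on the mean over the 12 arrays, corresponds to a signal of 46.9. The dimmer probe set was under it in both groups, and the brighter one was under it only in PBS_isolated. Crem (-0.10) and Klf6 (-0.09) were the 2 of the 11 that were lower.

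The effectors of the activity response were mixed, with 8 of 14 higher, a median of 0.05 and 0 called (limma; 1 at an unadjusted p under 0.05, Arc). Without KA_enriched replicate 2, 6 of 14 were higher and the median was 0.00. Arc, which trims AMPA receptors from synapses, gave 280, 241 and 226 in PBS_isolated and 285, 440 and 343 in KA_enriched, a difference of 0.47 (SE 0.132, or 1.39-fold; adjusted p = 0.914). The groups did not overlap, but the lowest KA_enriched array was only just above the highest PBS_isolated array. Arc stood at 285, 351 and 319 in PBS_enriched and at 185, 188 and 201 in KA_isolated, where it was lowest. Bdnf, a neurotrophin, differed by 0.18 (113, 105 and 109 against 112, 137 and 129) and overlapped. Rheb, a small GTPase that activates mTOR, differed by 0.13 and Dusp1, a phosphatase that turns off MAP kinases, by 0.30, both with overlapping arrays. The other effector without overlap was Ptgs2, the inducible cyclooxygenase, at 0.16. Thus 2 of the 14 effectors were higher without overlap, beside 4.43% of all tested genes.

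**Figure D3:**
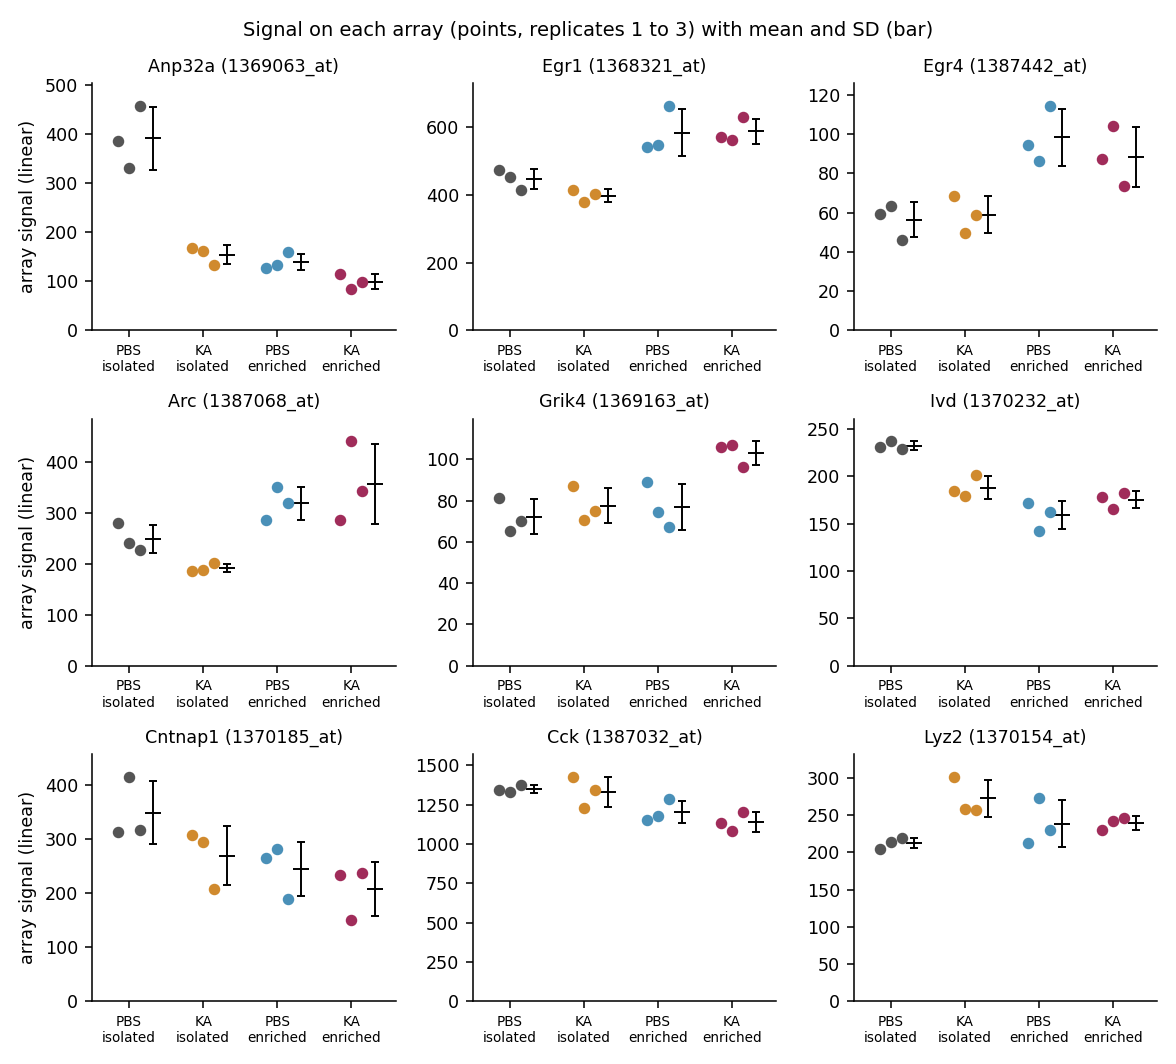
Linear signal on each of the 12 arrays for 9 probe sets, by group, with points for replicates 1 to 3 and a bar for the mean and SD; each vertical axis starts at 0. Anp32a is high in PBS_isolated and lowest in KA_enriched, Egr1, Egr4 and Arc are high in both enriched groups, and the axes differ between genes.

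The 15 higher genes that ranked first by unadjusted p, Egr1 and Egr4 among them, had differences of 0.27 to 0.52, and their arrays did not overlap, but none passed (limma, adjusted p from 0.677 to 0.914). Over all 9520 probe sets, 4.40% were higher without overlap, and these 15 were picked by p from them. Grik4, a high-affinity kainate receptor subunit of hippocampal pyramidal and granule neurons, gave 81.4, 65.4 and 69.9 in PBS_isolated and 106, 107 and 96.3 in KA_enriched (0.43, SE 0.102). The other groups, at 70.5 to 87.1 in KA_isolated and 67.4 to 89.1 in PBS_enriched, overlapped PBS_isolated and not KA_enriched. KA_enriched minus KA_isolated was 0.35 and KA_enriched minus PBS_enriched was 0.36 for Grik4, and neither passed (adjusted p = 0.622 and 0.842). Camk2a, a kinase of synaptic plasticity, was among the 15 through a weak probe set (0.34), but its brightest probe set differed by -0.19 and the remaining one by -0.13, so the 3 disagreed in sign.

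Xrcc4, a factor that joins broken DNA ends, gave 48.2, 50.7 and 48.6 in PBS_isolated and 61.0, 67.2 and 65.4 in KA_enriched (0.30, SE 0.066). Snrnp40, a spliceosome protein, differed by 0.49, Polr1a, the largest subunit of RNA polymerase I, by 0.36, and Ybx3, a cold shock protein that binds DNA and RNA, by 0.35. Vmac, a coiled-coil protein named for its association with vimentin, had the smallest p of the 15, at 44.4, 48.1 and 43.1 against 60.9, 68.7 and 77.9 (0.47, SE 0.091, adjusted p = 0.677). Klhl13 and Kctd6, adaptors of cullin ubiquitin ligases, differed by 0.42 and 0.31. Coa8, a mitochondrial factor for cytochrome c oxidase, differed by 0.50, Retnla, a secreted resistin-like protein, by 0.41, Smim11, a small membrane protein, by 0.34, and Tcf25, a component of ribosome quality control, by 0.27.

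The 15 lower genes that ranked first, with Anp32a at their head, ranged from -0.31 to -1.81, and their arrays did not overlap (3.87% of all probe sets were lower without overlap). The 14 genes other than Anp32a did not pass. Cntnap1, the paranodal protein that anchors myelin loops to the axon, gave 314, 416 and 316 in PBS_isolated and 234, 150 and 238 in KA_enriched (-0.72, SE 0.194, or 1.65-fold). PBS_isolated replicate 2 was the highest and KA_enriched replicate 2 the lowest of these arrays. Tpgs1, a subunit of the enzyme that adds glutamate chains to tubulin, gave 98.0, 111 and 110 against 67.8, 53.2 and 74.9 (-0.59, SE 0.117, adjusted p = 0.677). Tpgs1 in KA_isolated (84.1 to 93.7) and PBS_enriched (85.4 to 121) lay above all KA_enriched arrays.

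Ivd, a mitochondrial enzyme of leucine breakdown, gave 231, 237 and 228 in PBS_isolated and 178, 166 and 182 in KA_enriched (-0.37, SE 0.080, adjusted p = 0.709). Ivd in KA_isolated (179 to 201) and in PBS_enriched (142 to 171) also lay below every PBS_isolated array, at -0.28 and -0.51, and neither passed (the second with an adjusted p = 0.116 by limma). Ascc1, of a transcription cointegrator complex, differed by -0.52, and Rnaseh2a, which removes ribonucleotides from DNA, by -0.40. Smg5, of nonsense-mediated decay, differed by -0.32 and Ddx5, an RNA helicase, by -0.35. A second Ddx5 probe set differed by -0.14 and overlapped, and a second one of Smg5 by -0.26 without overlap. Syncrip-ps2 (-0.39) is annotated as a pseudogene of the RNA-binding gene Syncrip, and its probe set may also detect the parent gene.

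Igfbp5, which binds insulin-like growth factors, was among the 15 through a weak probe set (-0.36), while its brightest probe set differed by -0.01. Btbd1 was likewise at -0.42 on 1 probe set and at -0.06 on its brightest. Pogz, a zinc finger protein of chromatin, differed by -0.31, Pik3cd, a catalytic subunit of phosphoinositide 3-kinase found mostly in immune cells, by -0.44, Aurkaip1, a mitochondrial ribosome protein, by -0.33, and Tmem100, a membrane protein, by -0.31.

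**Figure D4:**
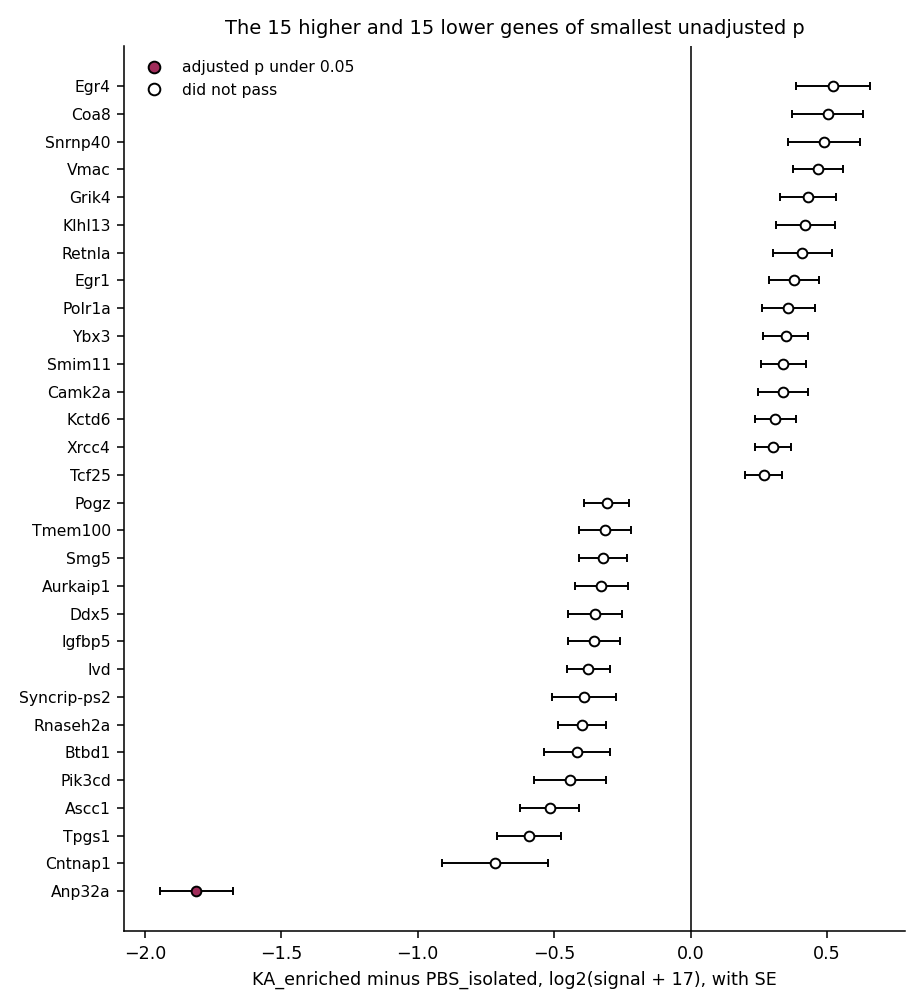
The difference KA_enriched minus PBS_isolated on the log2(signal + 17) scale with its limma SE for the 15 genes each way that ranked first by unadjusted p. Apart from Anp32a at -1.81, the differences lie between -0.72 and 0.52 and none of them passed.

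Size of difference and smallness of p picked out only partly the same probe sets. Anp32a, Tpgs1 and Cntnap1, which are among the 15 lower genes above, were also past 1.5-fold. Of the 12 past 1.5-fold, 4 were higher and 8 lower. The arrays of 5 did not overlap, beside 4.40% higher and 3.87% lower without overlap among all 9520 probe sets. The 12 were picked by the size of their difference, which by itself makes non-overlap more likely. Ttr, the transthyretin made by choroid plexus, differed by -0.80 with an SE of 0.93, with PBS_isolated arrays at 2719, 254 and 87.2 and KA_enriched arrays at 130, 683 and 125. Without PBS_isolated replicate 1, the highest, the Ttr difference was 0.54. Slc4a4, the sodium bicarbonate cotransporter of astrocytes, differed by -0.96 on 1 probe set. KA_enriched replicate 3 read 12.5 there, and the other KA_enriched arrays read 159 and 190 beside 152 to 205 in PBS_isolated. Phf20, a chromatin protein, at -0.60, and Hyou1, a chaperone of the endoplasmic reticulum, at -0.61, were likewise lowest on KA_enriched replicate 3. A brighter Slc4a4 probe set stands for the gene in the homeostatic astrocyte list below, where the lowest difference was -0.18. Mapkapk2, a kinase downstream of p38, differed by 0.70 with an SE of 0.39. Celf2, an RNA-binding splicing regulator, was higher on every KA_enriched array (78.9, 93.5 and 98.0 against 38.8, 54.4 and 69.7), at 0.61 (SE 0.178, adjusted p = 0.914).

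Markers of microglia, macrophages and complement were higher in mean in KA_enriched for 18 of 18 tested genes, with a median of 0.14 and 0 called (limma; 0 also at an unadjusted p under 0.05). Their summed signal was 2377 to 2500 on the PBS_isolated arrays and 2203 to 3496 on the KA_enriched arrays, the top value being replicate 3 and the lowest below every PBS_isolated array. Without replicate 3 the count was 11 of 18 and the median 0.01. With the beta-actin ratio as a covariate it was 13 of 18 and 0.07. The arrays did not overlap for 1 of the 18, beside 4.43% of all tested genes. It was Lyz2, the lysozyme of phagocytes, at 205, 214 and 219 against 229, 242 and 246 (0.16, SE 0.093, adjusted p = 0.914). C3, the central complement protein, read 28.7, 27.8 and 29.5 in PBS_isolated and 24.6, 26.4 and 106 in KA_enriched, with only replicate 3 above the PBS_isolated arrays (0.41). C3 was also high on every KA_isolated array (69.9 to 110) and on 1 PBS_enriched array (99.1). The limit of the filter on the mean over the arrays corresponds to a signal of 46.9. C3 was under it on every PBS_isolated array and on KA_enriched replicates 1 and 2, so it was tested through its signal on other arrays. Cd74, the chaperone of class II MHC molecules, read 43.9, 33.6 and 124 in KA_enriched, the last being replicate 3 again (0.45, and 0.0028 without it). The other KA_enriched arrays of Cd74 were also under that limit, and both genes count among the 18. Tyrobp, an adaptor of microglial receptors, differed by 0.26, C1qb, of the first complement component, by 0.25 and Aif1, a marker of microglia, by 0.20, with overlapping arrays. Without KA_enriched replicate 3 the C1qb difference was 0.025, and without PBS_isolated replicate 2 that of Aif1 was 0.012. The median of the list in KA_isolated minus PBS_isolated, which shares the PBS_isolated arrays, was 0.46, with a summed signal of 3244 to 3816.

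Reactive gliosis genes gave 6 of 8 higher, a median of 0.12 and 0 called, and 3 of 8 and -0.02 without KA_enriched replicate 3. Gfap, the intermediate filament of reactive astrocytes, read 2142, 1823 and 1774 in PBS_isolated and 1699, 1963 and 2311 in KA_enriched. The groups overlapped fully, and the difference was 0.05 (95% interval -0.24 to 0.34). Its direction was not stable, being -0.06 without KA_enriched replicate 3. Hspb1, a small heat shock protein of stressed astrocytes, read 34.3, 47.7 and 24.5 against 40.3, 54.7 and 62.6 (0.41, SE 0.161). Cp, ceruloplasmin, read 47.0, 54.1 and 46.8 against 56.2, 69.0 and 78.9 (0.35, SE 0.207). Only Cp, 1 of the 8, did not overlap, beside 4.43% of all tested genes that were higher without overlap. S100a10 differed by 0.11 and A2m, a protease inhibitor, by 0.12. Homeostatic astrocyte genes were 8 of 12 higher with a median of 0.04, and 5 of 12 with a median of -0.0049 without PBS_isolated replicate 3. Among them Mlc1 (0.21), Slc1a3, the glutamate transporter GLAST (0.15), S100b (0.09) and Fgfr3 (-0.11) did not pass. A dimmer Slc1a3 probe set differed by 0.36 without overlap and did not pass either (limma, adjusted p = 0.914).

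Chaperones were higher for 13 of 15 tested, with a median of 0.07, and none was called (limma; 3 higher and 1 lower at an unadjusted p under 0.05, beside 2.72% and 2.47% of all tested genes). Without KA_enriched replicate 3, and also with the beta-actin ratio as a covariate, 10 of 15 were higher. Cryab, a small heat shock protein, gave 144, 143 and 142 in PBS_isolated and 150, 190 and 174 in KA_enriched (0.23, SE 0.088). Dnajb5, a co-chaperone, differed by 0.50 with 1 PBS_isolated array at 186 inside the KA_enriched range, and Hspa9, the mitochondrial Hsp70, by -0.24. Antioxidant and metallothionein genes were 11 of 15 higher with a median of 0.03, and Cat (0.16), Prdx6 (0.12), Gclc (-0.16) and Sod2 (-0.23) spanned both signs. Without KA_enriched replicate 3 the count was 6 of 15 and the median -0.0083, and Gclc differed by -0.0083; with array weights and with the beta-actin covariate the count was 7 of 15. Apoptosis genes were evenly divided in sign, 5 of 10 higher. At an unadjusted limma p under 0.05, 2 were higher and 0 lower, beside 2.72% and 2.47% of all tested genes. Without overlap, 0 were higher and 1 lower, beside 4.43% and 4.02%. Of the members of smallest p, Bcl2l11 (0.26) and Diablo (0.23) promote cell death. Apaf1 (0.22) assembles the apoptosome, and Bcl2l1 (-0.13) opposes cell death. None of these genes passed.

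Pyramidal and granule neuron markers were 9 of 13 higher with a median of 0.04. Grik4 and Neurod1 were the 2 at an unadjusted p under 0.05, both higher, beside 2.72% of all tested genes. Neurod1, a factor of granule neurons and their precursors, gave 253, 244 and 250 in PBS_isolated and 276, 361 and 317 in KA_enriched (0.33, SE 0.130), without overlap and without passing. Dkk3 differed by 0.12 (0.024 without KA_enriched replicate 2) and Wfs1, a marker of the CA1 field, by -0.11. Interneuron genes were 5 of 11 higher with a median of -0.03, and 2 were lower without overlap, beside 4.02% of all genes. Cck, a peptide of basket cells and of some pyramidal cells, was lower on every KA_enriched array, at 1344, 1329 and 1379 against 1136, 1080 and 1203 (-0.24, SE 0.078, adjusted p = 0.914). Gad1, which makes GABA, was also lower without overlap (-0.12, SE 0.069), although its second probe set overlapped. Sst, somatostatin, differed by -0.11. Npy, a peptide that dampens seizures and is induced by them, differed by 0.11 (95% interval -0.08 to 0.30), at 419, 441 and 409 against 426, 442 and 509. The Npy difference was 0.035 without KA_enriched replicate 3.

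The 4 receptor and channel lists held 0 genes called by limma, and Grik4 was the 1 at an unadjusted p under 0.05. Of all tested genes, 4.43% were higher and 4.02% lower without overlap. Ionotropic glutamate receptors were 4 of 10 higher, with a median of -0.02 and Grik4 the 1 non-overlapping gene; Grin2a (-0.21), Gria3 (-0.10) and Grik2 (0.05) overlapped. The ionotropic count was 7 of 10 (median 0.02) without PBS_isolated replicate 3, and 6 of 10 both without KA_enriched replicate 3 (0.02) and with the beta-actin covariate (0.05). Metabotropic glutamate receptors were 2 of 5 higher (median -0.06; Grm8 0.42, Grm5 -0.34, Grm3 0.15, Grm7 -0.07). Without KA_enriched replicate 3, 4 of 5 were higher (median 0.03) and Grm8 differed by 0.055, against 1.02 without replicate 2; the median was also above 0 with array weights, with the beta-actin covariate, with the top 40% by mean and without PBS_isolated replicate 2 or 3. Grm5 was -0.023 with the beta-actin covariate. GABA receptors were 3 of 8 higher (median -0.02), with Gabrg1 at -0.28, Gabra4 at -0.15, Gabrd at -0.11 and Gabrb1 at 0.11. The GABA receptor count was 1 of 8 without KA_enriched replicate 3, where Gabrg1 differed by -0.060, and the median was 0.03 without KA_enriched replicate 1; Gabrd was -0.023 without KA_enriched replicate 2. Voltage-gated channels were 7 of 22 higher, with a median of -0.02 and 0 non-overlapping genes. The lean turned with array weights (15 of 22, median 0.03) and without KA_enriched replicate 3 (12 of 22, 0.0060), and the count was 11 of 22 with the beta-actin covariate and without PBS_isolated replicate 3. Kcnc1 differed by -0.30, Scn2b by -0.29 (-0.049 with the beta-actin covariate), Hcn2 by 0.24 and Kcnd3 by 0.20, and none passed.

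Synaptic vesicle genes were 10 of 20 higher, with a median of 0.00, 0 called and, at an unadjusted p under 0.05, 1 higher and 2 lower (2.72% and 2.47% of all genes). Svop, a vesicle protein of the transporter family, read 400, 403 and 452 in PBS_isolated and 373, 332 and 277 in KA_enriched (-0.35, SE 0.131), without overlap. Sv2a, a vesicle glycoprotein, differed by 0.25, Chga, chromogranin A, by -0.23 and Cplx2, complexin, by -0.32. The Cplx2 difference was -0.019 without KA_enriched replicate 3. The vesicle count was 6 of 20 with the beta-actin covariate. Postsynaptic genes were 8 of 16 higher, with a median of -0.01; the count was 5 (median -0.06) without KA_enriched replicate 1, and the median was above 0 under 6 alternatives. Of the 16, 2 were higher and 0 lower without overlap, beside 4.43% and 4.02% of all tested genes. At an unadjusted limma p under 0.05, 0 were higher and 1 lower, beside 2.72% and 2.47%. Shank3, a scaffold, was 1 of the 2 higher without overlap (0.24). Dlg4, the scaffold PSD-95, Dlg2 and Shank1 differed by -0.26, -0.28 and -0.26 with overlap. For Dlg2 it was -0.11 without KA_enriched replicate 3.

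Neurotrophin genes were 8 of 9 higher with a median of 0.09. Of the 9, 0 were without overlap, beside 4.43% higher and 4.02% lower of all tested genes. Without KA_enriched replicate 3, 5 were higher and the median was 0.01. Igf1 (0.19), Ntf3 (0.15) and Vgf (-0.20) were the list's members of smallest p beside Bdnf. Igf1 was 0.019 without PBS_isolated replicate 3. Glucocorticoid-responsive genes were 10 of 12 higher with a median of 0.07, and 6 of 12 with a median of 0.03 without KA_enriched replicate 2. Among them were Fkbp5, a chaperone of the receptor (0.25), and Nfkbia (0.30), while the receptor Nr3c1 differed by -0.14. Genes of immature neurons were 6 of 12 higher, with a median of 0.00, and 3 of 12 with the beta-actin covariate. Without PBS_isolated replicate 2 the median was 0.06. In each direction 1 gene did not overlap, beside 4.43% higher and 4.02% lower of all tested genes. Neurod1, described above, was the higher one and had the highest difference of the 12 (0.33). Dcx, doublecortin, was lower without overlap (58.4, 60.9 and 67.8 against 50.1, 54.0 and 55.4; -0.18, SE 0.115), Stmn2 differed by -0.10 (-0.031 without KA_enriched replicate 3) and Sox4 by 0.18.

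Oligodendrocyte and myelin genes were 4 of 12 higher, with a median of -0.03; without KA_enriched replicate 3, 9 of 12 were higher and the median was 0.05, and with the beta-actin covariate 8 of 12 and 0.03. Mag, a myelin glycoprotein facing the axon, was higher on every KA_enriched array (684, 727 and 683 against 776, 886 and 794; 0.22, SE 0.084, adjusted p = 0.914). Mbp, a main myelin protein, differed by 0.06 (95% interval -0.12 to 0.24) and by -0.01 after quantile normalization. Cnp differed by 0.08, Mal by -0.07 and Olig1 by -0.10. Choroid plexus and meningeal genes were 3 of 12 higher with a median of -0.07, and 0.07, with 8 of 12 higher, both without PBS_isolated replicate 1 and with the beta-actin covariate; their summed signal ran from 2856 to 6594 in PBS_isolated and from 2987 to 3497 in KA_enriched. Dcn, the meningeal proteoglycan decorin, was lower without overlap (170, 165 and 148 against 112, 88.8 and 146; -0.44, SE 0.186), while Igfbp2 (-0.32, and -0.058 without PBS_isolated replicate 1) and Aqp1 (0.27) overlapped. Vessel genes were 2 of 8 higher with a median of -0.06, and 4 of 8 higher without PBS_isolated replicate 3. No vessel gene was without overlap, beside 4.43% higher and 4.02% lower of all tested genes. Slco1a4 differed by -0.16, Kdr by 0.26, Acta2 by -0.13 (-0.044 without PBS_isolated replicate 1) and Slc2a1 by -0.09. Thalamic and striatal markers were 6 of 8 higher (median 0.09; Pde10a 0.25, Prkcd 0.13, Tcf7l2 0.12, or 0.019 without KA_enriched replicate 1, Slc17a6 -0.15), and blood genes 2 of 3 (median 0.01; Hbb 0.13, Alas2 0.01, Slc4a1 -0.01).

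**Figure D5:**
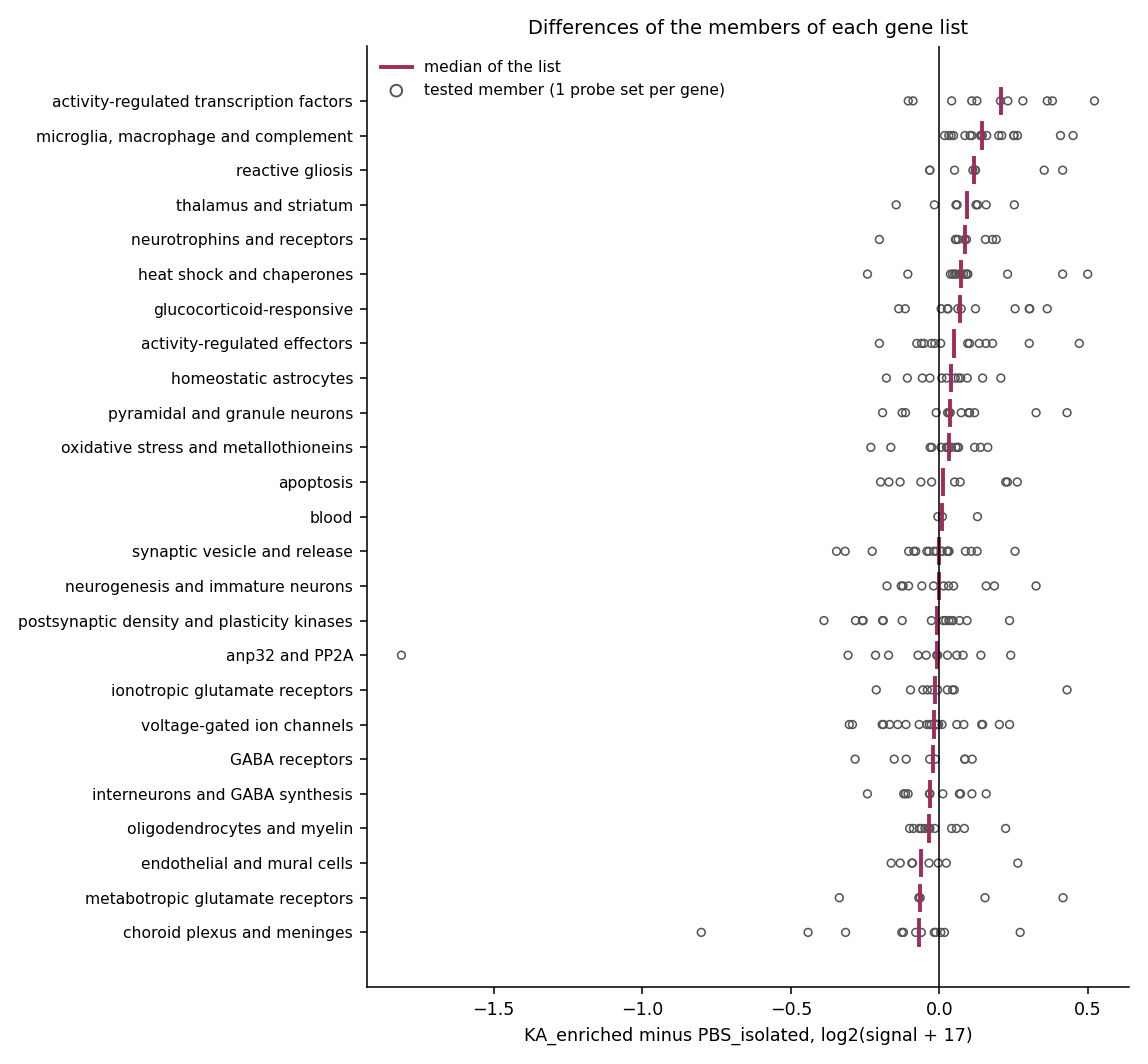
The difference KA_enriched minus PBS_isolated on the log2(signal + 17) scale for each tested member (open points) of the 25 gene lists, with a bar at each list's median, ordered by that median. Medians run from -0.07 for choroid plexus and meninges to 0.21 for activity-regulated transcription factors, and the point at -1.81 is Anp32a.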

How the data were processed

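RNA of 12 rat hippocampus pools was measured on 1-colour Affymetrix-type arrays, 1 array per pool. The deposited values are probe set intensity on a linear scale; the summary of probes into probe sets is not given in the sources used. In the deposited intensity, the mean of each array without its lowest and highest 2% was 150 and array medians differed by at most 1.058-fold, so no further normalization was applied. None of the arrays were identical. After removal of 57 control probe sets, 17 was added, log2 taken, and the brightest 60% of the remaining 15866 by mean over the 12 arrays were tested (9520). Symbols came from the platform annotation, checked through the RefSeq table of GRCr8; 8061 tested probe sets had 1 symbol, 220 several and 1239 none, and those with several stay unnamed. The number of arrays limits the precision.

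Differences were tested with limma 3.58.1 (lmFit and eBayes) in R 4.3.3, as 1 model of 4 group means with 13.1 degrees of freedom. P-values are two-sided and were adjusted by Benjamini-Hochberg over all tested probe sets, with a threshold of 0.05. The code was tested on simulated data.

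Genes were named if called, if among the 15 first by p in either direction, as up to 4 tested members of a list by p, and always for Gfap, Aif1, Bdnf, Npy, Fos, Arc, Ttr, Mbp, Egr1, Anp32a, C3, Cd74 and Hspb1. A gene with several probe sets entered its lists through the brightest. The comparison and the 25 lists were chosen with earlier results of these data known. The genes plotted, the promoters searched, the genes followed in the other groups, the probe sets past 1.5-fold, and Jun, Crem, Klf6 and Ptgs2 were picked after their values were seen.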

Additional observations from a re-analysis of the deposited data

How the results depend on the processing

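Alternatives were pseudocounts of 5 and 50, no filter, the top 40% by mean, equal medians, quantile normalization, only the 2 groups in the fit, the replicate number as a block, array weights, a mean-variance trend, the beta-actin ratio as a covariate, and each of the 12 arrays left out. Anp32a was the 1 probe set called under all 23, with a log2 difference of -1.93 to -1.56 and an adjusted p of 8.91e-06 to 0.00365. The count at an unadjusted p under 0.05 (500) was 874 with no filter, where more probe sets were tested, 325 with only the 2 groups in the fit, where fewer arrays give the spread, and 388 to 834 with 1 array left out (834 without KA_enriched replicate 1); the cause of the last was not tested. Deviations of same-numbered arrays of the 2 groups correlated at 0.07, 0.05 and 0.08, the highest of all pairings. Those of differently numbered arrays ran from -0.09 to 0.04. All were small, and the replicate numbers were not taken as pairs in the main fit. With the replicate block the count at an unadjusted p under 0.05 was 566, with 1 probe set called. Of 3458 gene values under the alternatives, 3412 kept their direction and side of the threshold, 43 turned their sign, in 20 results that did not pass, and 3 newly passed: without KA_enriched replicate 1, Arc in KA_enriched minus KA_isolated was 0.96 (limma, adjusted p = 0.0479), and Ivd in PBS_enriched minus PBS_isolated was -0.51 (adjusted p = 0.0433) with the top 40% by mean and -0.50 (0.045) with array weights. The cause of these was not tested.

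After quantile normalization, a value of opposite sign in KA_enriched minus PBS_isolated was Mbp -0.013. With array weights, values of opposite sign in KA_enriched minus PBS_isolated were Cnp -0.0032, Grik2 -0.071, Grm7 0.029 and Gfap -0.076. With array weights, a value of opposite sign in KA_enriched minus PBS_enriched was Egr1 -0.0080. With the beta-actin covariate, values of opposite sign in KA_enriched minus PBS_isolated were A2m -0.049, Mal 0.0050, Ttr 0.093, Slc4a1 0.11, Grin2a 0.065, Grik2 -0.063, Grm3 -0.0047, Grm7 0.016, Gabrb1 -0.0067, C3 -0.070 and Gfap -0.033. With the beta-actin covariate, a value of opposite sign in KA_enriched minus PBS_enriched was Egr1 -0.00014. With 1 array left out, KA_enriched minus PBS_isolated ran from -0.028 to 0.21 for A2m, from -0.13 to 0.032 for Mal, from -1.82 to 0.54 for Ttr, from -0.18 to 0.011 for Slc2a1, from -0.16 to 0.19 for Alas2, from -0.16 to 0.15 for Slc4a1, from -0.38 to 0.066 for Grin2a, from -0.029 to 0.18 for Grik2, from -0.21 to 0.093 for Grm7, from -0.011 to 0.25 for Ntf3, from -0.10 to 0.68 for C3 and from -0.061 to 0.16 for Gfap. With 1 array left out, KA_enriched minus PBS_enriched ran from -0.037 to 0.11 for Egr1 and from -0.021 to 0.28 for Arc. With 1 array left out, PBS_enriched minus PBS_isolated ran from -0.019 to 0.15 for Grik4. With 1 array left out, KA_enriched minus KA_isolated ran from 0.66 to 0.96 for Arc. With 1 array left out, KA_isolated minus PBS_isolated ran from -0.050 to 0.14 for Egr4.

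With 3 arrays a group, differences under about 0.21 on the log2 scale lie inside the median 95% interval, and those of dim probe sets are damped further by the pseudocount. Of the 25 list medians, 15 changed sign under at least 1 of the 23 alternatives and 10 under none of them; equal medians and quantile normalization turned 0 of the 25.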
